A study of Mus musculus with 4 samples.

Results

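The genes described here are 42 genes of mitosis and of the G2 phase that precedes it, listed by name for their role in cell division. All 42 were among the 36144 gene names of the count table, and all 42 had over 10 counts in 2 or more of the libraries, as did 13979 names. The data are bulk RNA-seq of mouse colonoids, closed 3-dimensional cultures of the colonic epithelium that hold dividing stem and progenitor cells and the mature cells they give rise to. Cultures at passage 3 were left untreated or given 2 mM sodium butyrate, a short-chain fatty acid made by gut bacteria, and RNA was taken at 48 h or 72 h, as 4 libraries in all, 1 per condition. The labels date all libraries as day 2 or day 3 and give hours for the butyrate ones alone, so the untreated libraries were taken as 48 h and 72 h by their day. The sample labels call the mouse a wild-type male aged 24 weeks. The methods describe Hes1-GFP reporter mice instead, and the paper's legend for these RNA-seq data names organoids of a single Hes1-GFP mouse. This difference could not be settled here. Every culture, untreated cultures included, received EGF, Noggin, R-spondin, the Wnt pathway activator CHIR99021 and Y-27632. Nothing in the labels points to a second animal or culture for any condition.

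Cells enter mitosis when the kinase Cdk1, bound to a B-type cyclin, is activated by phosphatases of the Cdc25 family. Chromosomes are then attached to spindle microtubules through kinetochores, a checkpoint delays separation until all are attached, and the anaphase-promoting complex marks cyclin B and securin for destruction so that the chromosomes part and the cell divides. Most of the genes involved are transcribed in a wave from late S phase to mitosis, and in the colon this expression is known for the dividing stem and progenitor cells of the crypt. Butyrate is a fuel of colonocytes and an inhibitor of histone deacetylases. Because the RNA came from whole cultures, fewer dividing cells and less RNA per dividing cell cannot be told apart in any value below.

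The wave is driven in part through 2 short promoter elements, the cell cycle genes homology region, which the MuvB complex binds, and the CCAAT box, which the factor NF-Y binds. RefSeq promoters of GRCm38.p6, covering 250 bases before to 50 after the start site, were at hand for 35 of the 42 genes, as 37 promoters. The letters TTTGAA were found on either strand in 27 of the 37 (73%), against 17.9% of all 32851 promoters in the table and 12.4% of the 13457 that belong to genes passing the filter. CCAAT was found on either strand in 27 (73%), against 37.4% and 37.8%, and more than 1 CCAAT in 17 (45.9%), against 11.7% and 14%. Both elements stood in 23 promoters (62.2%), against 6.95% and 5.09%. No TTTGAA match overlapped a CCAAT match, 1 promoter (*Ube2c*) had 2 CCAAT matches that overlapped each other, a match is a description and not a shown binding site, and a missing match says only that these letters are not in this window.

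6 promoters are shown because their genes carry the patterns described below. They are those of *Aspm*, *Cenpf* and *Ccnb2*, which were lower with butyrate at 48 h and higher at 72 h, of *Top2a* and *Mybl2*, which were higher at both times, and of *Pttg1*, which was higher at 48 h with an interval that included 0 at 72 h. Each is written 5′ to 3′ on the strand of its gene, with the motif letters, or their reverse complements TTCAAA and ATTGG, in capitals. The positions in GRCm38.p6 are chr1:139454523-139454822 on the plus strand for *Aspm*, chr1:189688037-189688336 on the minus strand for *Cenpf*, chr9:70421505-70421804 on the minus strand for *Ccnb2*, chr11:99024140-99024439 on the minus strand for *Top2a*, chr2:163054385-163054684 on the plus strand for *Mybl2* and chr11:43425932-43426231 on the minus strand for *Pttg1*.
Aspm: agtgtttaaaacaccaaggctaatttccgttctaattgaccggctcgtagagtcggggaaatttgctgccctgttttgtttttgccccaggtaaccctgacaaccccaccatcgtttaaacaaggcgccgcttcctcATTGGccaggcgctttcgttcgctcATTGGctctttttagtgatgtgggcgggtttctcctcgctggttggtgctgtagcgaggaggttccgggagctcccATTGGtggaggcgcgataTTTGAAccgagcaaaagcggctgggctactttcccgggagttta
Cenpf: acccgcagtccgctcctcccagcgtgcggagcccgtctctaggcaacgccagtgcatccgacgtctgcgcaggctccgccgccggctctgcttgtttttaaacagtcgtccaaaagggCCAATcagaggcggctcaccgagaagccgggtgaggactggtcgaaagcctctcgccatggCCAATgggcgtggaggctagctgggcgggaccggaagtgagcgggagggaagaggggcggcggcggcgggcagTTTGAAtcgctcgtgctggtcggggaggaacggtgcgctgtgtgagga
Ccnb2: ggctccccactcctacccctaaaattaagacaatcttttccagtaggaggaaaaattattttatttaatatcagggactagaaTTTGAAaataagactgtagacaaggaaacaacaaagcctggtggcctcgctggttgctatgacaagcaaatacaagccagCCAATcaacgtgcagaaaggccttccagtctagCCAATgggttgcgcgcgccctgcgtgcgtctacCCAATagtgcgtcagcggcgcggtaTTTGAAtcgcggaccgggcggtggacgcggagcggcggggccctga
Top2a: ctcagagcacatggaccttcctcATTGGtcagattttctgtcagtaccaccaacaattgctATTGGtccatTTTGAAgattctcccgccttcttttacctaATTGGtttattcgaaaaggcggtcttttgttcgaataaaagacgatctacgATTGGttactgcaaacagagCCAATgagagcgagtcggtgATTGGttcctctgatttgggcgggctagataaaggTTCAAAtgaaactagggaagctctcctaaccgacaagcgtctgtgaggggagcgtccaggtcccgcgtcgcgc
Mybl2: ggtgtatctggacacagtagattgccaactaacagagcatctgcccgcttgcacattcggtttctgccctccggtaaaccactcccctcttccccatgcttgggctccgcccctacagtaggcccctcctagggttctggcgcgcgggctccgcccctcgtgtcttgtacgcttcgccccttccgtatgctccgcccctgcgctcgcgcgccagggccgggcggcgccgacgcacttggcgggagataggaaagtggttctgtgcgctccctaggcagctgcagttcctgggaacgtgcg
Pttg1: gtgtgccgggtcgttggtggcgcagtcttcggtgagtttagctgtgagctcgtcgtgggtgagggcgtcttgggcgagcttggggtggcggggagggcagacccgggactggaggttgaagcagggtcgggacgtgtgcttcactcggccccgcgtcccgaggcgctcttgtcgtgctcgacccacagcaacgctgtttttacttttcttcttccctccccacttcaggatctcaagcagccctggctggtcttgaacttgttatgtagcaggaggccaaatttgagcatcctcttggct

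In the *Ccnb2* promoter 3 CCAAT matches stood at −87, −54 and −21 and 2 TTTGAA matches at −167 and 5, counted from the first base of the transcript as 1 with no base 0. *Aspm* had TTTGAA at 7 and CCAAT matches at −113, −88 and −12, and *Cenpf* had TTTGAA at 3 and CCAAT matches at −132 and −71. *Top2a* held 6 CCAAT matches and 2 TTTGAA matches. Neither motif was found in the windows of *Mybl2* and *Pttg1*, nor in those of *Birc5*, *Mad2l1*, *Nuf2* and *Nusap1*. In this order their log2 changes at 48 h were 0.62, 0.54, 0.05, −0.48, −0.16 and −0.49, so 3 of these 6 genes were below 0. The 25 genes with TTTGAA had median log2 changes with butyrate of −0.22 (48 h) and 0.18 (72 h), and the 10 without it had −0.09 and 0.11. At 48 h 19 of the 25 and 6 of the 10 were below 0, against 51.3% of all genes. At 72 h 22 of the 25 and 9 of the 10 were above 0, against 50.3%. For CCAAT the order at 48 h was the reverse, as the 25 genes with it had medians of −0.13 and 0.19 and the 10 without it −0.29 and 0.09. Of these, 18 of the 25 and 7 of the 10 were below 0 at 48 h, and 24 and 7 were above 0 at 72 h. None of these differences was tested.

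The libraries held 20790225 to 24207840 counts, and mitochondrial genes took 14.1% to 18.4% of them. Counts were divided by DESeq2 size factors of 0.926 to 1.10, and the results are given below as normalised counts and as log2 changes with a pseudocount of 1. The range in brackets after a log2 change is its 95% exact Clopper-Pearson interval, which covers counting error only. With 1 library per condition no difference could be set against replicate error, so no test was run and "higher" and "lower" compare single libraries. The 42 genes were well covered, with 211 to 15647 counts in each library and a mean normalised count over 1000 for 30 of them. Markers of colonic epithelium such as *Epcam* and *Cdh1* summed to 164846 to 187400 normalised counts with all 9 detected in every library. Stromal markers summed to 15.1 to 21.8, with 2 to 4 of 6 at 0, immune markers to 41.7 to 71.3, with 1 or 2 of 6 at 0, and endothelial markers to 28.1 to 53.3, with 0 or 1 of 3 at 0.

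Levels of different genes were compared per kb of exon length. *Mki67*, which coats mitotic chromosomes and is the Ki-67 marker of dividing cells, stood highest at 1337 normalised counts per kb averaged over the libraries, and *Aspm* lowest at 46.1, a 29.0-fold span with a median of 257. *Top2a*, *Plk1*, *Ccna2* and *Ccnb2* followed *Mki67*, and *Cdc25c*, *Ndc80* and *Cenpf* lay just above *Aspm*. Ranges over the 4 libraries overlapped in 38 of the 41 pairs of neighbours in this order, the exceptions being *Mki67* above *Top2a*, *Ube2c* above *Incenp* and *Incenp* above *Tpx2*, while *Aspm* with butyrate at 48 h, at 28.9 per kb, lay below every value of every other gene. With the longest transcript in place of the union of exons, *Top2a* passed *Mki67*, *Aspm* stayed lowest and the largest shift was 15 ranks, so the middle of the order depends on the length used.

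**Figure D1:**
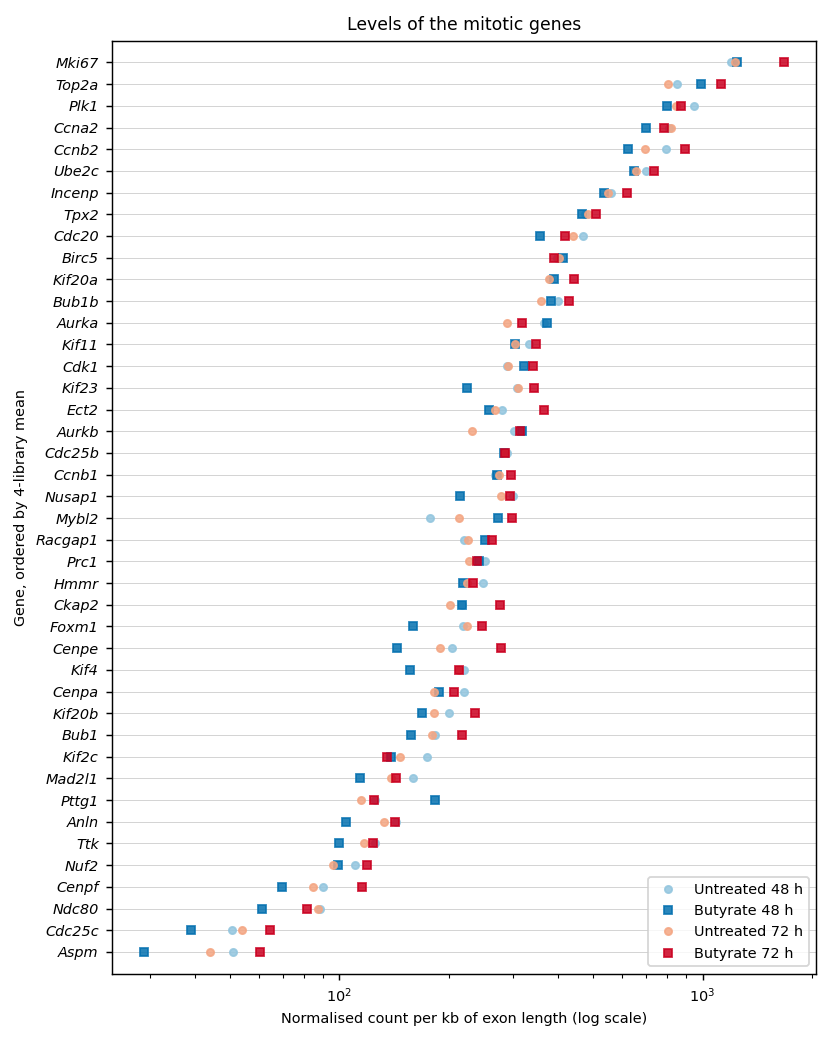
Normalised counts per kb of exon length on a log axis for each of the 42 genes, ordered by their 4-library mean, with 1 point per library (circles untreated, squares butyrate). *Mki67* averages 1337 and *Aspm* 46.1, and the 4 points of a gene mostly lie close together compared with the span between genes.

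The question of the first comparison was how these genes stood after 48 h of butyrate. Most were slightly lower than in the untreated library, with *Aspm*, *Ndc80*, *Cenpe*, *Kif4* and *Nusap1* lowest, while *Mybl2*, *Pttg1*, *Top2a* and *Racgap1* were higher. In all, 30 of 42 were below 0 on the log2 scale, against 51.3% of all 13979 genes, and 12 were above 0, against 48.7%. The median log2 change was −0.17, or 0.890-fold, against −0.01 over all genes, and the changes ran from −0.82 to 0.62. These genes are counted more deeply than most, so shares are also given among the 9110 genes with a mean at or above that of the lowest of the 42, which are the nearer reference. Of the 9110, 55.9% were below 0 and 44.1% above. 1 gene was at least 1.5-fold higher (*Mybl2*), against 13.1% of all genes and 4.65% of the 9110, and 1 at least 1.5-fold lower (*Aspm*), against 8.9% and 4.85%. Counting intervals lay wholly below 0 for 25 genes, against 31.3% and 39.3%, and wholly above 0 for 6, against 29.3% and 29.4%.

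After 72 h the genes stood the other way round. 37 of 42 were above 0, against 50.3% of all genes and 48% of the 9110, and 5 below 0, against 49.7% and 52%. Those 5 were *Ccna2*, *Birc5*, *Ndc80*, *Kif2c* and *Cdc20*, each with an interval that included 0. The median log2 change reached 0.17, or 1.12-fold, against 0.00 over all genes, and the changes ran from −0.12 to 0.57. No gene was at least 1.5-fold higher, against 9.5% of all genes and 2.35% of the 9110, or lower, against 8.53% and 3.27%. Intervals lay wholly above 0 for 24 genes, against 25.9% of all genes and 27.8% of the 9110, and wholly below 0 for none, against 26.4% and 31.4%.

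**Figure D2:**
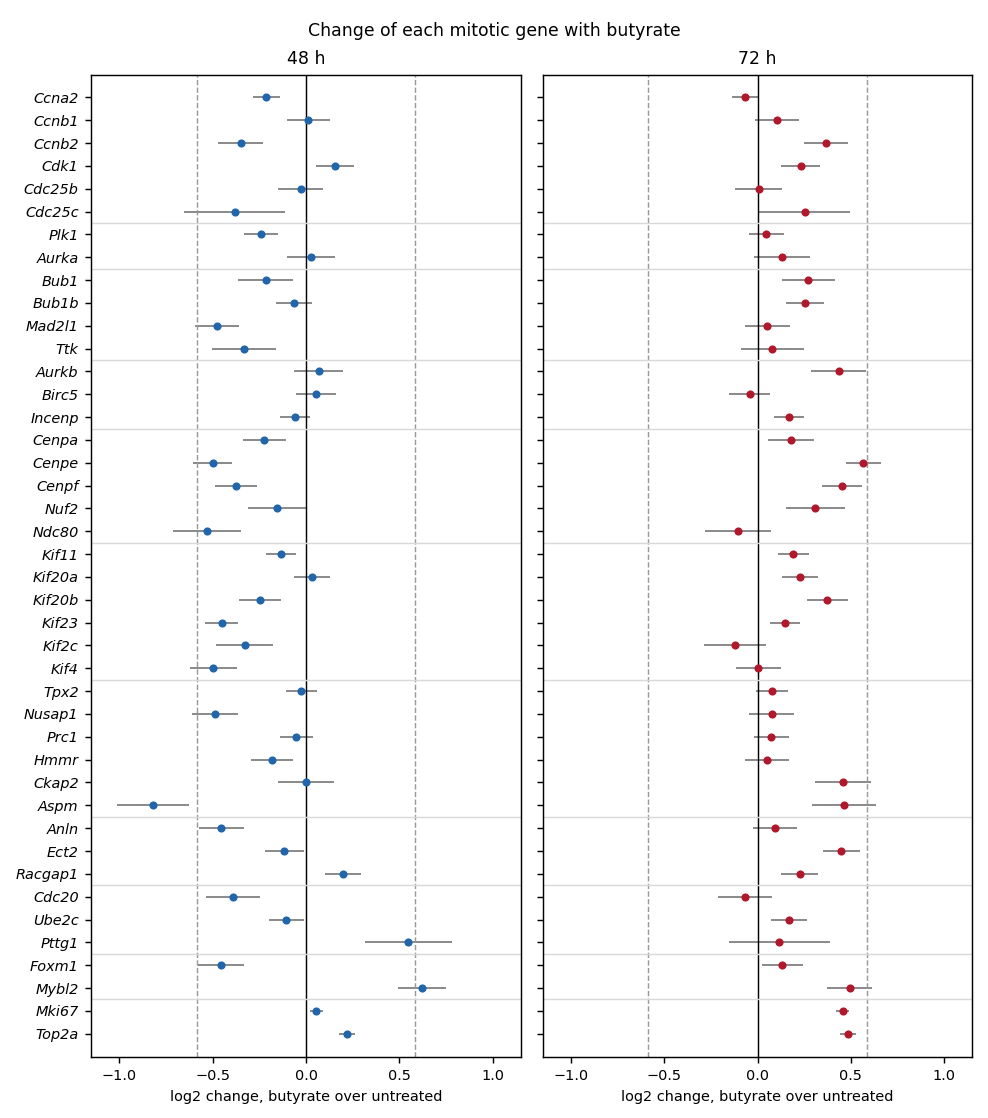
Log2 change of each of the 42 genes, butyrate over untreated, at 48 h (blue) and 72 h (red), grouped by role, with 95% intervals for counting error only and dashed lines at 1.5-fold. At 48 h 30 genes lie left of 0 and *Aspm* is at −0.82, and at 72 h 37 genes lie right of 0.

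The 2 comparisons share no library. 26 genes were below 0 at 48 h and above 0 at 72 h, against 19.9% of all genes and 21.4% of the 9110. 1 gene, *Birc5*, was the reverse, against 18.4% and 17.5%. In 14 genes both intervals excluded 0 in these opposite directions, lower then higher, against 5.33% of all genes and 7.27% of the 9110. In none were they higher then lower, against 4.54% and 5.76%. The change at 72 h minus that at 48 h was above 0 in 39 of 42 genes, against 50% of all genes and 52.6% of the 9110. Its median was 0.35, against −0.00 over all genes. The interval of this difference, here by the normal approximation for counting error, lay wholly above 0 in 31, against 24.5% of all genes and 31.6% of the 9110. It lay wholly below 0 in 1 (*Pttg1*), against 23.9% and 26.8%. Genes above 0 at both times numbered 11, against 30.4% of all genes and 26.6% of the 9110, and genes below 0 at both times 4, against 31.3% and 34.5%. The libraries at the ends were the butyrate ones. 25 genes were lowest in butyrate at 48 h, against 31.9% of all genes and 36.7% of the 9110. 24 were highest in butyrate at 72 h, against 23.5% and 22.8%.

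**Figure D3:**
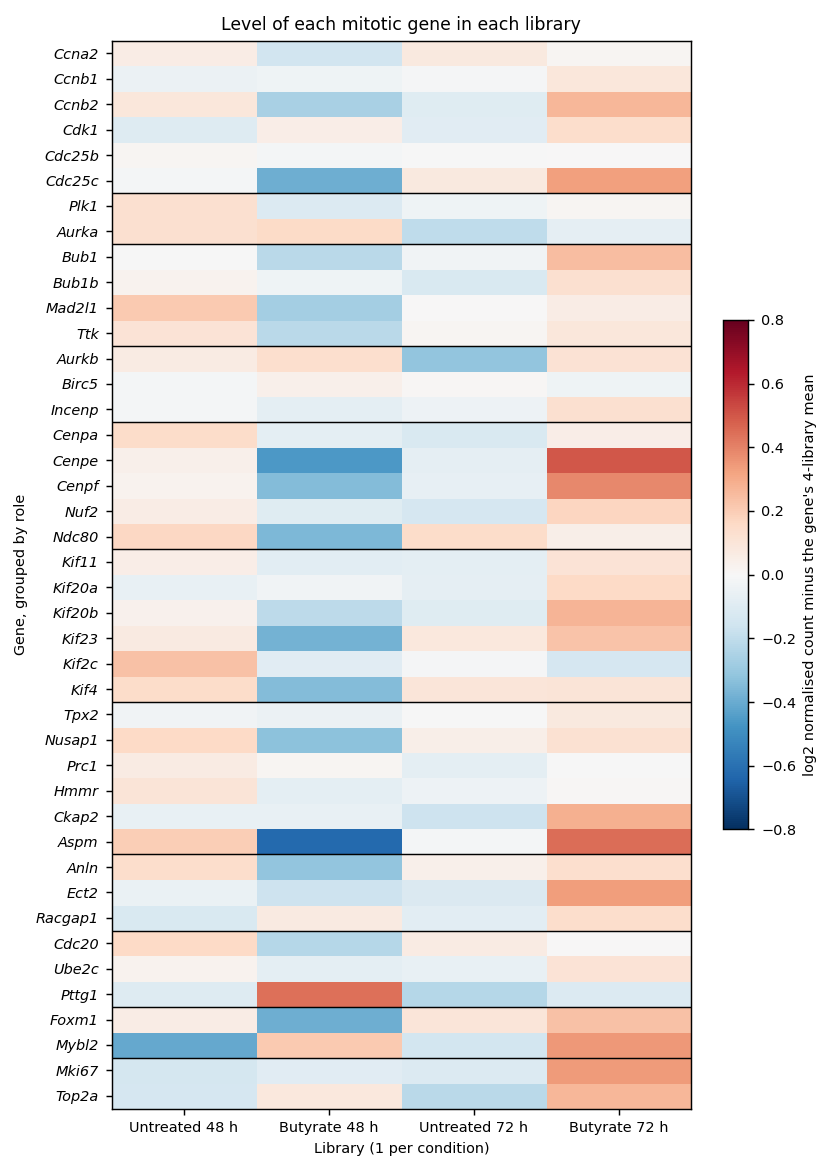
Log2 normalised count of each gene in each of the 4 libraries minus that gene's 4-library mean, from blue (below) to red (above), with lines between role groups. The median over the 42 genes is 0.04 in untreated and −0.09 in butyrate at 48 h, and −0.05 and 0.13 at 72 h.

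Cyclins, Cdk1 and the Cdc25 phosphatases set off entry into mitosis. *Ccna2*, the cyclin A of S and G2 phase, had normalised counts of 3301 (untreated) against 2849 (butyrate) at 48 h, then 3344 against 3196 at 72 h. It was lowest with butyrate at 48 h, with a log2 change of −0.21 (−0.28 to −0.14) there and −0.07 (−0.14 to 0.01) at 72 h. *Ccnb2*, a B-type cyclin, had 1214 (untreated) against 952 (butyrate) at 48 h, then 1062 against 1368 at 72 h. Its butyrate libraries lay on either side of both untreated ones, at −0.35 (−0.47 to −0.23) and 0.36 (0.25 to 0.48). *Cdc25c*, a phosphatase that removes the inhibitory phosphates of Cdk1, had the lower count of the family, 249 (untreated) against 191 (butyrate) at 48 h, then 266 against 316 at 72 h, with −0.38 (−0.65 to −0.11) and 0.25 (0.01 to 0.50). *Cdk1* itself had 1425, 1589, 1435 and 1683 in the same order of libraries and was higher with butyrate at both times, by 0.16 (0.05 to 0.26) and 0.23 (0.13 to 0.33). *Ccnb1*, the other B-type cyclin, had 1134, 1144, 1161 and 1249, and *Cdc25b* 1078, 1056, 1063 and 1068, so that *Cdc25b* was the steadiest of all 42 genes. At both times the intervals of the 2 cyclins B lay apart, that of *Ccnb1* being −0.10 to 0.13 and then −0.01 to 0.22. Those of the 2 Cdc25 genes overlapped at both times, that of *Cdc25b* being −0.15 to 0.09 and then −0.12 to 0.13. The intervals of *Ccnb1* and *Cdc25b* thus included 0 at both times.

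Of the kinases of mitotic entry and spindle assembly, *Plk1*, the Polo-like kinase, had 2079 (untreated) against 1757 (butyrate) at 48 h, then 1855 against 1916 at 72 h. It was highest untreated at 48 h, with a butyrate change of −0.24 (−0.33 to −0.15) there, against 0.05 (−0.05 to 0.14) at 72 h. *Aurka*, the Aurora A kinase of the spindle poles, had 924 (untreated) against 942 (butyrate) at 48 h, then 734 against 804 at 72 h. Its 2 libraries at 48 h lay above its 2 at 72 h whatever the treatment, and its changes with butyrate were 0.03 (−0.10 to 0.16) and 0.13 (−0.02 to 0.28).

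The spindle checkpoint genes were all lower at 48 h and all higher at 72 h, 4 of 4 each time, against 51.3% and 50.3% of all genes, with medians of −0.27 and 0.17. *Bub1b*, which encodes the checkpoint protein BubR1, had 1706 (untreated) against 1632 (butyrate) at 48 h, then 1537 against 1833 at 72 h, and its change was −0.06 (−0.16 to 0.03) and then 0.25 (0.15 to 0.35). *Mad2l1*, whose protein Mad2 holds back the anaphase-promoting complex, had 1334 (untreated) against 959 (butyrate) at 48 h, then 1160.2 against 1203 at 72 h. It was lowest with butyrate at 48 h, at −0.48 (−0.59 to −0.36), while the libraries at 72 h differed by 0.05 (−0.07 to 0.17). *Bub1*, a kinase of the unattached kinetochore, had 798 (untreated) against 687 (butyrate) at 48 h, then 783 against 945 at 72 h, which gave −0.22 (−0.36 to −0.07) and 0.27 (0.13 to 0.41). *Ttk*, the Mps1 kinase upstream of the others, had 618, 491, 577 and 609, with −0.33 (−0.50 to −0.16) and 0.08 (−0.09 to 0.25).

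The chromosomal passenger complex corrects faulty attachments and acts again in cytokinesis, and the intervals of its 3 genes included 0 at 48 h. *Incenp*, its scaffold, had 2418 (untreated) against 2321 (butyrate) at 48 h, then 2381 against 2676 at 72 h, with changes of −0.06 (−0.14 to 0.02) and 0.17 (0.09 to 0.25). *Aurkb*, its Aurora B kinase, had 893 (untreated) against 935 (butyrate) at 48 h, then 683 against 923 at 72 h. The low library for *Aurkb* was the untreated one at 72 h, and its changes with butyrate were 0.07 (−0.06 to 0.20) and 0.43 (0.29 to 0.58). *Birc5*, the subunit survivin, had 1349.7, 1399.9, 1369.5 and 1329.5, with intervals that included 0 at both times.

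Genes of the centromere and kinetochore were lower at 48 h in 5 of 5 cases, against 51.3% of all genes, and higher at 72 h in 4 of 5, against 50.3%, with medians of −0.38 and 0.31. *Cenpe*, a kinesin that carries chromosomes to the spindle equator, had 1755 (untreated) against 1241 (butyrate) at 48 h, then 1626 against 2407 at 72 h. Its lowest and highest libraries were the 2 butyrate ones, at −0.50 (−0.60 to −0.40) and 0.57 (0.47 to 0.66), and the latter was the highest change of the 42 genes at 72 h. *Cenpf*, a large kinetochore protein of G2 and mitosis, had 1391 (untreated) against 1072 (butyrate) at 48 h, then 1306 against 1786 at 72 h, with −0.38 (−0.49 to −0.26) and 0.45 (0.35 to 0.56). *Ndc80*, which binds microtubules at the kinetochore, had 574 (untreated) against 397 (butyrate) at 48 h, then 567 against 527 at 72 h. It was lower with butyrate at 48 h, at −0.53 (−0.71 to −0.35), and stood at −0.10 (−0.28 to 0.07) at 72 h. Its partner *Nuf2* had 698, 627, 610.2 and 756 and the changes −0.16 (−0.31 to −0.001) and 0.31 (0.15 to 0.47), so that 2 genes of 1 complex differed in direction at 72 h, the *Ndc80* interval including 0. *Cenpa*, the histone H3 variant of centromeres, had 1287, 1101, 1067 and 1209, with −0.22 (−0.34 to −0.11) and 0.18 (0.06 to 0.30).

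Kinesins move chromosomes and build the spindle and the midzone. *Kif11*, the motor that pushes spindle poles apart, had 2487 (untreated) against 2265 (butyrate) at 48 h, then 2271 against 2594 at 72 h, with −0.13 (−0.22 to −0.05) and 0.19 (0.11 to 0.28). *Kif23*, a motor of the central spindle, had 2428 (untreated) against 1776 (butyrate) at 48 h, then 2448 against 2707 at 72 h. Its butyrate library at 48 h was far below the other 3, at −0.45 (−0.54 to −0.36), and the change at 72 h was 0.14 (0.06 to 0.23). *Kif20b*, a motor of cytokinesis, had 1394 (untreated) against 1174 (butyrate) at 48 h, then 1268 against 1643 at 72 h, with −0.25 (−0.36 to −0.14) and 0.37 (0.27 to 0.48). *Kif4*, the chromokinesin, had 1216 (untreated) against 862 (butyrate) at 48 h, then 1177 against 1179 at 72 h, with −0.50 (−0.62 to −0.37) and 0.003 (−0.12 to 0.12). *Kif20a*, which sits at the midzone, had 1652, 1689, 1641 and 1922, and *Kif2c*, a microtubule depolymerase, 762, 606, 641 and 589.7, and neither was lower at 48 h and higher at 72 h. Exons of *Kif20a* overlap those of *Cdc23* on the other strand over 29.3% of their length, and those of *Kif4* overlap *Pdzd11* over 15.1%, and whether counting used strand is not given in the sources used here.

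Among proteins of spindle microtubules, *Aspm*, which acts at spindle poles, had the widest spread of the 42 genes. It had 591 (untreated) against 335 (butyrate) at 48 h, then 509 against 702 at 72 h. Its butyrate library was the lowest at 48 h and the highest at 72 h, at −0.82 (−1.01 to −0.63) and 0.46 (0.29 to 0.63), and the difference between these changes was 1.28 (1.03 to 1.53). *Tpx2*, which activates Aurora A and nucleates microtubules, had the highest mean of the group, with 2219 (untreated) against 2181 (butyrate) at 48 h, then 2255 against 2381 at 72 h, and its changes of −0.02 (−0.11 to 0.06) and 0.08 (−0.01 to 0.16) included 0 both times. *Ckap2*, which stabilises microtubules, had 699, 699.5, 649 and 889.9 and *Nusap1*, which bundles them, 1224, 872, 1133 and 1195, so that one was set apart at 72 h and the other at 48 h. Their changes were 0.46 (0.31 to 0.61) at 72 h for *Ckap2* and −0.49 (−0.61 to −0.37) at 48 h for *Nusap1*. *Hmmr*, a spindle pole protein, and *Prc1*, a bundler of the midzone, were lower at 48 h, at −0.18 (−0.29 to −0.07) and −0.05 (−0.14 to 0.04), and stood at 0.05 and 0.07 at 72 h.

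For cytokinesis, *Racgap1*, the partner of Kif23 in centralspindlin, had 1556 (untreated) against 1783 (butyrate) at 48 h, then 1596 against 1866 at 72 h. Both butyrate libraries lay above both untreated ones, at 0.20 (0.10 to 0.29) and 0.23 (0.13 to 0.32). *Anln*, the ring protein anillin, had 1293 (untreated) against 944 (butyrate) at 48 h, then 1206 against 1286 at 72 h, and was lower at 48 h, at −0.45 (−0.57 to −0.33), with 0.09 (−0.02 to 0.21) at 72 h. *Ect2*, which activates RhoA at the furrow, had 1511 (untreated) against 1394 (butyrate) at 48 h, then 1446 against 1972 at 72 h. Its butyrate library at 72 h stood above the other 3, with −0.12 (−0.22 to −0.01) and then 0.45 (0.35 to 0.55). *Kif23* and *Racgap1*, which encode the 2 subunits of centralspindlin, thus lay on opposite sides of 0 at 48 h.

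Exit from mitosis depends on the anaphase-promoting complex. *Ube2c*, its ubiquitin-conjugating enzyme, had 1811 (untreated) against 1682 (butyrate) at 48 h, then 1704 against 1913 at 72 h, with −0.11 (−0.20 to −0.01) and 0.17 (0.07 to 0.26), and its exons overlap *Tnnc2* on the other strand over 22.8% of their length. *Pttg1*, which encodes securin, the inhibitor of separase that the complex destroys, had 251 (untreated) against 366 (butyrate) at 48 h, then 230.1 against 249 at 72 h. It was the reverse of most of the genes, as its butyrate library at 48 h was the highest of the 4, at 0.54 (0.31 to 0.78), with 0.12 (−0.15 to 0.39) at 72 h and a difference of −0.43 (−0.78 to −0.08). *Cdc20*, the activator of the complex at anaphase onset, had 873, 666, 819.5 and 783, with −0.39 (−0.54 to −0.25) and −0.07 (−0.21 to 0.08).

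The 2 transcription factors that switch on late cell cycle genes differed in direction at 48 h. *Foxm1* had 1262 (untreated) against 920.0 (butyrate) at 48 h, then 1294 against 1419 at 72 h, lowest with butyrate at 48 h, at −0.46 (−0.58 to −0.33) and 0.13 (0.02 to 0.24). *Mybl2*, the B-Myb protein that joins MuvB in S phase, had 822 (untreated) against 1263 (butyrate) at 48 h, then 986 against 1388 at 72 h. Both of its butyrate libraries were above both untreated ones, at 0.62 (0.49 to 0.75) and 0.49 (0.37 to 0.61), which made it the highest change of the 42 at 48 h. *Mki67* had 12058 (untreated) against 12530.5 (butyrate) at 48 h, then 12331 against 16899 at 72 h, and its changes were 0.06 (0.02 to 0.09) and 0.45 (0.42 to 0.49). *Top2a*, the topoisomerase that untangles sister chromatids, had 7683 (untreated) against 8939 (butyrate) at 48 h, then 7251 against 10146 at 72 h, with 0.22 (0.18 to 0.26) and 0.48 (0.44 to 0.53). Together with *Cdk1* and *Racgap1*, *Mybl2*, *Mki67* and *Top2a* were the 5 genes with intervals above 0 at both times, against 12.9% of all genes. None had intervals below 0 at both, against 13.6%.

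*Mki67* and *Top2a* weigh heavily in any sum over the genes. The normalised counts of all 42 summed at 48 h to 73434 untreated against 69473 in butyrate, and at 72 h to 70535 against 84763. Without these 2 genes the sums were 53693, 48003, 50952 and 57718, and the low library at 48 h and the high one at 72 h were the same.

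Change with time was read from the same 4 libraries, so it is not independent of the comparisons above. In untreated colonoids 31 of 42 genes were lower at 72 h than at 48 h, against 49.4% of all genes, and 11 higher, against 50.5%, with a median log2 change of −0.09 and a range of −0.39 to 0.26. With total count scaling, which moved the median of all genes to −0.08, 40 were lower, against 62.3% of all genes so scaled, and 2 higher, against 37.7%. None was at least 1.5-fold higher, against 6.82% of all genes and 1.54% of the 9110, or lower, against 5.17% and 1.44%. The lowest was *Aurkb*, at −0.39 (−0.53 to −0.24), and the highest *Mybl2*, at 0.26 (0.13 to 0.40). In butyrate 36 of 42 were higher at 72 h, against 48.7% of all genes, and 6 lower, against 51.3%, with a median of 0.20 and a range of −0.55 to 1.07. 6 were at least 1.5-fold higher, against 9.66% of all genes and 5.09% of the 9110, namely *Aspm* at 1.07, *Cenpe* at 0.96, *Cenpf* at 0.74, *Cdc25c* at 0.72, *Foxm1* at 0.62 and *Kif23* at 0.61. None was at least 1.5-fold lower, against 11.9% and 4.69%, and *Pttg1* was the lowest, at −0.55 (−0.79 to −0.31). The spread over time was therefore wider in the butyrate pair of libraries than in the untreated pair, with a median absolute log2 change of 0.231 and 0.0952 for the 42 genes and of 0.277 and 0.169 for all genes.

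Other genes of the cell cycle were read from lists of their own, to be set beside the 51.3% of all genes below 0 at 48 h and the 50.3% above 0 at 72 h. Of 66 other mitotic genes 53 were lower at 48 h and 51 higher at 72 h, with medians of −0.19 and 0.12, close to the −0.17 and 0.17 of the 42. The gene of this list with the largest change at 48 h was *Pimreg*, a regulator of the metaphase to anaphase step, with 239 (untreated) against 122 (butyrate) at 48 h, then 177 against 218 at 72 h, at −0.97 (−1.29 to −0.66), and at 72 h it was *Psrc1*, a spindle protein, with 378 (untreated) against 484 (butyrate) at 48 h, then 313 against 557 at 72 h, at 0.83 (0.63 to 1.04). Of 19 condensin, cohesin and separase genes 16 were lower and then 17 higher, with medians of −0.18 and 0.20. *Sgo1*, the shugoshin that guards centromeric cohesion, was at −0.67 (−0.84 to −0.50) at 48 h and its relative *Sgo2a* at 0.47 (0.28 to 0.66) at 72 h. Of 17 subunits and regulators of the anaphase-promoting complex 12 were lower and then 13 higher, with medians of −0.12 and 0.06. The subunits *Anapc4* at 48 h, at −0.44 (−0.56 to −0.31), and *Anapc10* at 72 h, at 0.26 (0.05 to 0.48), were the farthest from 0.

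Regulators upstream were read against the same 51.3% and 50.3%. Of the 19 genes of MuvB, the E2F factors and the pocket proteins 12 were lower and then 9 higher, with medians of −0.07 and −0.02, and *Lin9*, a MuvB subunit, was at −0.51 (−0.69 to −0.32) at 48 h and *E2f2* at −0.56 (−0.73 to −0.39) at 72 h. Of the 15 genes of the G2 checkpoint 12 were lower and then 11 higher, with medians of −0.15 and 0.16, and *Pkmyt1*, a kinase that inhibits Cdk1, was at −0.40 (−0.54 to −0.26) at 48 h and the stress gene *Gadd45b* at 0.56 (0.22 to 0.91) at 72 h. Of the 39 S phase genes 24 were higher, against 48.7% of all genes, and 15 lower at 48 h, with a median of 0.03. At 72 h 38 of 39 were higher, with a median of 0.32. *Ccne1*, cyclin E of the G1 to S step, was at 0.86 (0.69 to 1.05) at 48 h and *Uhrf1*, which maintains DNA methylation during replication, at 0.67 (0.59 to 0.75) at 72 h. No test was run between any of these lists and the 42 genes.

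**Figure D4:**
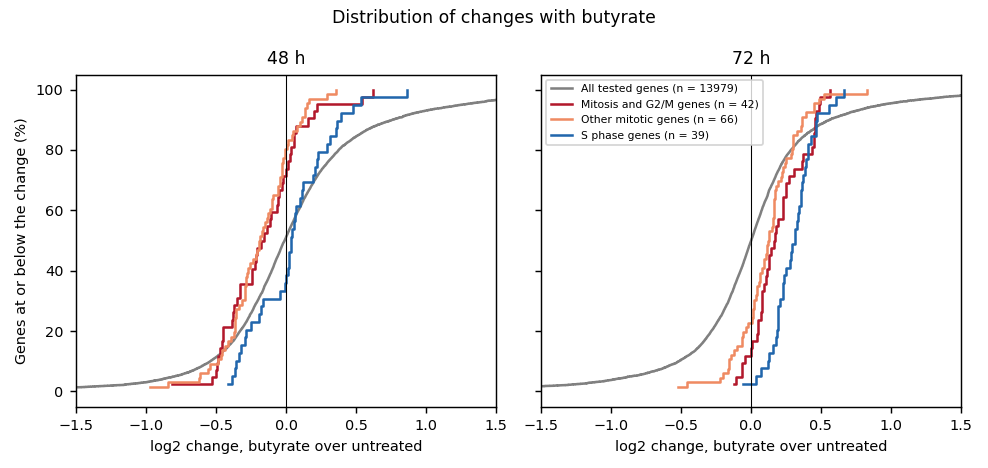
Cumulative share of genes (%) at or below each log2 change, butyrate over untreated, at 48 h and 72 h, for all 13979 genes passing the filter (grey), the 42 mitosis and G2/M genes (red), 66 other mitotic genes (orange) and 39 S phase genes (blue), with an axis that ends at 1.5 either way. The red and orange lines lie left of the grey one over most of their length at 48 h, where the red median is −0.17. At 72 h the red, orange and blue lines lie right of it over most of their length, with medians of 0.17, 0.12 and 0.32. The upper end of the red line lies left of the grey one at 72 h, with a 95th percentile of 0.48 against 0.94.

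Markers of cell types within the epithelium differed between the same libraries. Their counts by direction are to be set beside the shares of all genes. At 48 h 48.7% of all genes were above 0 and 51.3% below, and at 72 h 50.3% and 49.7%. The 5 stem cell markers, *Lgr5* and *Ascl2* among them, summed at 48 h to 18204 normalised counts untreated against 13277 in butyrate, and at 72 h to 12746 against 20830, with 4 of 5 lower and then 5 of 5 higher. The 5 markers of differentiated colonocytes summed to 10851, 16774, 13747 and 10382, with 5 of 5 higher and then 5 of 5 lower. The 5 goblet cell markers summed to 94373, 76222, 147264 and 77861, with 2 of 5 lower in butyrate at 48 h, *Muc2* and *Zg16*, and 5 of 5 lower at 72 h. Against the untreated library of the same time, the stem sum was thus lower in butyrate at 48 h and higher at 72 h, as was the sum of the mitotic genes, and the colonocyte sum was the reverse. The lowest stem sum was in the untreated library at 72 h, and *Ascl2* was the stem marker that was higher at 48 h. The stem marker *Olfm4* rested on 16, 2, 13 and 24 counts, with an interval at 72 h of −0.02 to 2.11. Intervals of the colonocyte marker *Aqp8* included 0 at both times, at −0.10 to 0.26 and −0.18 to 0.12. The part of these markers in the values of the mitotic genes was not tested.

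Transcript length and base composition were set beside the changes. Over the 42 genes the change from 48 h to 72 h in butyrate had a Pearson's r of 0.56 and a Spearman's rho of 0.43 with the log10 of the longest transcript, against 0.18 and 0.28 over 13933 genes, and the genes share the same 2 libraries. For the other comparisons r over the 42 genes was −0.29 with butyrate at 48 h, 0.37 at 72 h and 0.15 over time untreated, against −0.09, 0.03 and 0.06 over all genes. Median changes at 48 h over all genes ran from −0.11 in the lowest of 10 equal groups by GC content to 0.07 in the highest, and 12 of the 42 lay in the group next to the lowest. With the median of its GC group taken off each gene's change, the median of the 42 kept its sign at both times, and the part of length and GC content in single genes was not tested.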

How the data were processed

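Poly-A selected RNA of 4 cultures was sequenced as bulk libraries, and the sample labels gave the condition of each. The authors deposited estimated counts per gene as whole numbers, without normalisation. The submitters' processing notes name kallisto 0.44.0 and GRCm38.p6, and the methods name tximport. In the gene names 26 had become calendar dates and 2 were listed more than once, and none of the 42 genes was among them. The filter was over 10 counts in 2 or more libraries. Size factors came from DESeq2 1.42.0 and TMM factors from edgeR 4.0.16 in R 4.3.3, and all else from Python 3.11.15 (scipy 1.17.1, numpy 2.4.6, matplotlib 3.10.9, pandas 2.3.3). Log2 changes had a pseudocount of 1, and exact Clopper-Pearson intervals at 95% were taken on the pair of counts. No molecular identifiers were used, so reads are not separate molecules and the intervals cover counting error only. No p-value was computed. Lengths and GC content came from GENCODE for GRCm38, which matched all 42 genes. The scripts were tested on simulated data. The 42 genes, the other lists and the markers were chosen with earlier results of these data known. Values in every library are given, for each role, for the gene with the highest mean and those with the largest change at 48 h and at 72 h, for genes with opposite changes whose intervals both excluded 0, and for the rest in brief. In the other lists the gene with the largest change at each time is named. The reference to genes with a mean at or above that of the lowest of the 42, and the GC alternative, were chosen after seeing the data. Alternatives were other scalings, filters, thresholds, lengths and a pseudocount of 5. Protein sequences, and the promoters of 7 of the genes, were not analysed here.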

Additional observations from a re-analysis of the deposited data

Results flagged for a closer look

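In 14 of the 42 genes the log2 change with butyrate was below 0 at 48 h and above 0 at 72 h, with both counting intervals clear of 0, against 5.33% of all genes and 7.27% of the 9110 more deeply counted ones. None was the other way round, against 4.54% of all genes and 5.76% of the 9110. With 1 library per condition this difference between the 2 times was not tested. For the 4 cases of kinetochore and centromere genes the changes at 48 h and 72 h were −0.22 and 0.18 for *Cenpa*, −0.50 and 0.57 for *Cenpe*, −0.38 and 0.45 for *Cenpf* and −0.16 and 0.31 for *Nuf2*. Among kinesins they were −0.13 and 0.19 for *Kif11*, −0.25 and 0.37 for *Kif20b* and −0.45 and 0.14 for *Kif23*. For genes of mitotic entry and the checkpoint they were −0.35 and 0.36 for *Ccnb2*, −0.38 and 0.25 for *Cdc25c* and −0.22 and 0.27 for *Bub1*. The rest were −0.82 and 0.46 for *Aspm*, −0.12 and 0.45 for *Ect2*, −0.46 and 0.13 for *Foxm1* and −0.11 and 0.17 for *Ube2c*. *Aspm* was the widest apart, from the lowest change of the 42 at 48 h to one of the 4 highest at 72 h. Some of these values lie close to 0, as for *Ube2c*, *Kif11* and *Ect2*, and their intervals cover counting error and not the difference between cultures. The interval of *Nuf2* at 48 h ended at −0.001, and the count of 14 was not taken again under other settings.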

How the results depend on the processing

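Of 840 values of single genes computed again under other settings, 831 stayed within their counting intervals and 9 moved beyond them. 15 changed sign, from values at most 0.0520 from 0, whose intervals included 0, to values at most 0.0688 from 0, and 9 of these were over time untreated with total count scaling. The settings were TMM scaling, total count scaling, size factors without mitochondrial genes, a pseudocount of 5 and, chosen after seeing the data, the change less the median of its group among 10 by GC content. Over these settings and 2 other filters on low counts the median log2 change of the 42 genes stayed between −0.18 and −0.13 at 48 h, 0.16 and 0.22 at 72 h, −0.17 and −0.09 over time untreated and 0.17 and 0.22 over time in butyrate. With total count scaling, which moved the median of all genes to 0.05 at 72 h and to −0.08 over time untreated, 1 gene was at least 1.5-fold higher with butyrate at 72 h. The share of all genes past 1.5-fold was not computed with this scaling, which put 57.3% of them above 0 at 72 h. A threshold of 25% higher or 20% lower gave 2 genes higher and 15 lower at 48 h, against 22.7% and 20.5% of all genes, and 11 higher at 72 h, against 18.1%. Over time untreated it gave 2 lower, against 12.5% and 6.45%. Over time in butyrate it gave 17 higher, against 20.8% and 17.3%, and 1 lower, against 22.8% and 14.9%. A threshold of 2-fold gave 0 higher and 0 lower at 48 h, against 6.94% and 3.08%, and 1 higher over time in butyrate, against 3.67%. Shares of all genes past 1.5-fold depend on the filter, and with a mean count of 50 or more they were 5.88% higher and 5.13% lower at 72 h, against 9.5% and 8.53%, whereas with at least 1 count in any library they were 15.8% and 17.2%. No paired analysis was possible because the conditions share only 1 replicate number, each having a single library, and for the same reason no library could be left out. At these depths the lowest of the 42 genes had 211 counts, and differences between cultures could not be measured.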
